A study of Rhodotorula toruloides with 18 samples.

Results

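The genes described here are 100 genes of the oil-storing yeast Rhodotorula toruloides whose transcripts were raised in a cbr1 deletion strain on cellobiose, out of 8484 genes in the deposited table. They were chosen by their values. TPM is a transcript level scaled to transcript length and library total. Of the 7938 genes that averaged 1 TPM or more over all 18 libraries, those kept had a group mean of log2(TPM + 1) at least 1 higher in the deletion strain than in the wild type on cellobiose. In addition, the wild type without carbon lay less than 0.5 above the wild type on cellobiose, the deletion strain without carbon lay less than 0.5 above the wild type there, and the wild type on succinate lay less than 0.5 above the wild type without carbon. These bounds leave out most genes that the wild type expresses when starved and lowers on cellobiose. They were met by 120 genes, which were ranked by the margin of the deletion strain on cellobiose over the highest of the wild type on cellobiose and both strains without carbon. The first 100 were taken.

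Both strains are IFO0880. The deletion strain carried yku70::HygR and cbr1::NatR, and the strain labelled wild type carried yku70::HygR, so both lacked intact yku70. Loss of Ku70, a protein of end-joining DNA repair, is commonly used in fungi to raise the share of targeted insertions. Cells from rich glucose medium (YPD) were washed and held for 8 h at 28 degrees C, with shaking at 250 rpm and in constant light, in yeast nitrogen base of pH 6.2 with 1% cellobiose, 1% succinate or no carbon source. Each strain and medium had 3 libraries, described as biological triplicates, which gives 6 groups. Where these share a culture or a transformant, the p-values measure only the spread between libraries. Whether the deletion strain stems from 1 transformant or several is not given in the sources used here.

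Cellobiose is a glucose disaccharide that many fungi split with beta-glucosidases, and succinate is an acid of the citric acid cycle. In carbon catabolite repression, a preferred carbon source keeps genes for the use of other sources low, and transcription factors set which genes are repressed or induced. The study concerns such a factor in an oleaginous yeast. The files pair no names with the gene identifiers, and 0 of the 8484 identifiers matched the 8171 genes of the RefSeq table of strain NP11, so identifiers are given without a function, and the cbr1 transcript is not analysed here.

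The number of reads behind each library is unknown, since TPM keeps no record of it. The median TPM of all tested genes ran from 15.5 to 42.1 among the libraries, and the 10 most abundant genes took between 8.37% and 19.1% of the total. A change in that share moves the TPM of all other genes. The library labelled cbr1 deletion on succinate, replicate 3, stood apart from its group. Its Pearson's r of log2(TPM + 1) over the 7938 genes, which are no independent replicates, was 0.983 and 0.987 with replicates 1 and 2 of the wild type on succinate, against 0.921 and 0.954 with replicates 1 and 2 of its own group. Whether its label is right was not tested, and every strain difference on succinate takes the label as given. Summary counts that use this library are therefore also given without it. Other libraries on succinate departed too. Deletion replicate 1 had an r of 0.959 and 0.921 with its own group and 0.960 with wild type replicate 2 on cellobiose. Wild type replicate 3 had 0.913 and 0.937 with its own group and 0.949 with deletion replicate 2 on succinate. Leaving out either of these lowered the count at an unadjusted p given below, while leaving out deletion replicate 3 raised it.

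On cellobiose the 100 genes were higher in the deletion strain by a median of 1.31 on the log2(TPM + 1) scale, with a range of 1.01 to 3.00. The rule used this difference, so it is a description and was not tested. The median TPM of the 100 genes was 50.8, 45.0 and 40.9 in the deletion libraries on cellobiose, against 20.5, 21.2 and 14.4 in the wild type libraries on cellobiose. All 3 deletion libraries lay above all 3 wild type libraries. In such bulk samples, fewer cells that use a gene and less RNA per cell cannot be told apart. On succinate the median was 31.1, 21.2 and 13.3 TPM in the deletion libraries, against 9.34, 10.6 and 7.59 in the wild type libraries, again with no overlap of the medians. Without carbon it was 21.3, 20.5 and 17.02 TPM in the deletion libraries and 19.8, 21.1 and 9.004 in the wild type libraries, and there the strains overlapped.

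**Figure D1:**
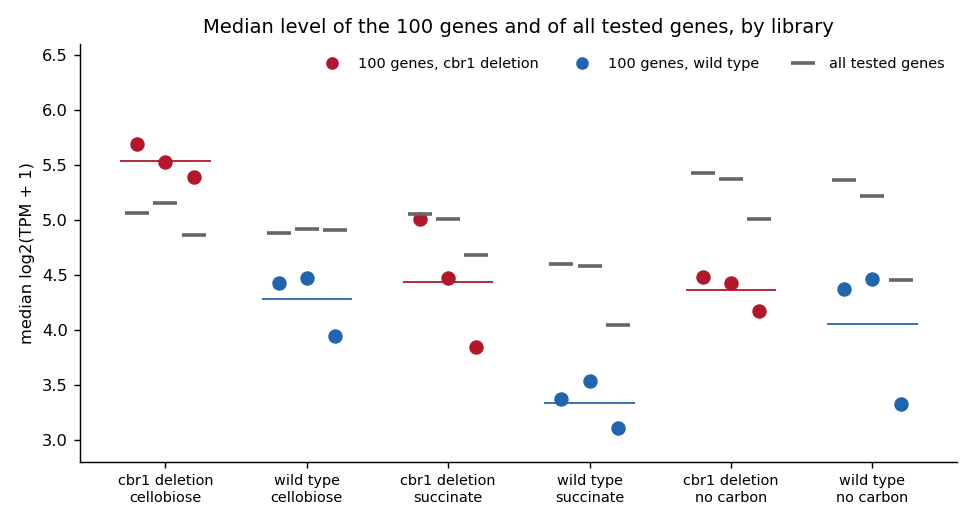
Median log2(TPM + 1) of the 100 genes in each library (dots, red for the cbr1 deletion and blue for the wild type, with a line at the mean of the 3 libraries) and of all 7938 tested genes (grey dashes). The 100 genes lie above the median of all tested genes in the deletion strain on cellobiose and below it in every other library.

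Set against the median of all tested genes of the same library, the 100 genes lay 0.51 ± 0.13 above it in the deletion strain on cellobiose and 0.62 ± 0.30 below it (-0.62) in the wild type on cellobiose (log2 scale, SD, n = 3 each). On succinate the distance was -0.47 ± 0.40 in the deletion strain and -1.07 ± 0.15 in the wild type (SD, n = 3 each). Without carbon it was -0.91 ± 0.07 and -0.96 ± 0.20 (deletion strain and wild type, SD, n = 3 each). The order of the groups by this distance was the deletion strain on cellobiose, the deletion strain on succinate, the wild type on cellobiose, both strains without carbon, and the wild type on succinate. The groups from the second to the last in that order overlapped with a neighbour. The libraries of the deletion strain on succinate gave -0.046 in replicate 1, -0.53 in replicate 2 and -0.84 in replicate 3.

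Most of the genes were not silent elsewhere, so they are better called raised than ectopically switched on. In the deletion strain on cellobiose, group means were under 1 TPM in 0 of the 100 genes, at 10 TPM or more in 76 and at 100 TPM or more in 24. In the wild type on cellobiose, they were under 1 TPM in 5 genes, at 10 TPM or more in 56 and at 100 TPM or more in 9. Among all tested genes of a group, the median member was at the percentile 63.6 in the deletion strain on cellobiose and at 36.8 in the wild type on cellobiose. On succinate it was at 39.8 in the deletion strain (44.9 without replicate 3) and 25.5 in the wild type, and without carbon at 27.3 in the deletion strain and 25.04 in the wild type.

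In 74 of the 100 genes the lowest deletion library on cellobiose lay above all other 15 libraries, against 4.16% of all tested genes. Without deletion replicate 3 on succinate, the count against the other 14 libraries was also 74, against 4.17%. With the deletion libraries on succinate left aside, which the rule did not use, the count was 90, against 5.52%. The difference between these counts came mostly from the deletion library replicate 1 on succinate, which reached the lowest deletion library on cellobiose in 19 genes. Replicates 2 and 3 did so in 3 and 2 genes. Since the rule ranked genes by the same libraries, nothing is read from the other comparisons.

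**Figure D2:**
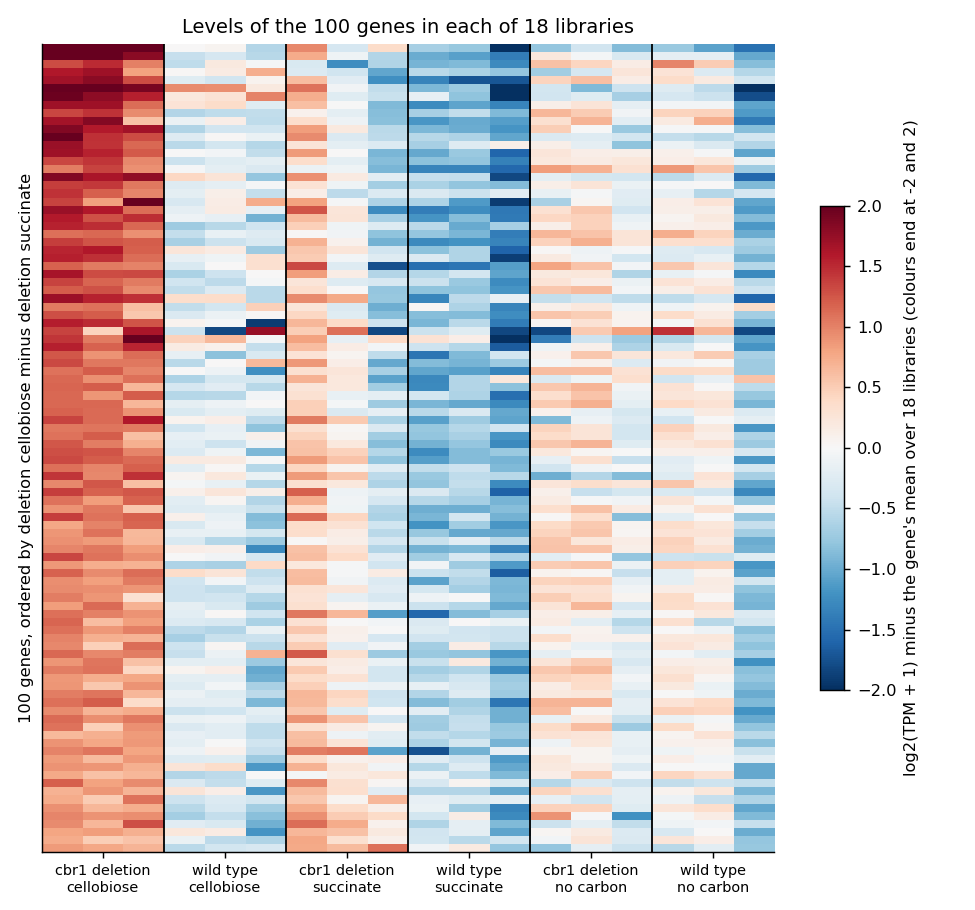
Heat map of the 100 genes (rows, ordered by the deletion strain on cellobiose minus the deletion strain on succinate) in the 18 libraries (columns, replicates 1 to 3 in each group). Colour gives log2(TPM + 1) minus the gene's mean over all libraries. The deletion libraries on cellobiose are above the mean almost throughout, and the wild type libraries on succinate are mostly below it.

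The choice of genes depended on the libraries without carbon. The 100th gene had a margin of 0.44 and the 101st of 0.43, and 29 genes lay within 0.1 of the bound on the strain difference without carbon. When each library was left out in turn, between 46 and 100 of the genes were chosen again. The lowest counts were 52 without deletion replicate 3 in no carbon, and 46, 53 and 53 without wild type replicates 3, 1 and 2 in no carbon. Leaving out a library of either strain on cellobiose kept 79 to 89 of the genes.

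That last step also gives the cellobiose difference in a library that did not choose the genes. Genes were chosen without deletion replicate 1, 2 or 3 on cellobiose, and the value in that library was then set against the wild type. In each of the 3 cases, 99 of 100 chosen genes were above all 3 wild type libraries on cellobiose, against 48.3%, 50.8% and 40.2% of all tested genes. The median difference of the chosen genes from the wild type mean was 1.42, 1.26 and 1.17 in the library left out, against 0.25, 0.33 and 0.06 for all tested genes. Likewise, wild type replicates 1, 2 and 3 lay below all 3 deletion libraries in 100, 100 and 95 of 100 genes chosen without them, against 52.4%, 50.2% and 49.8% of all tested genes. The libraries on the other side of each of these counts did take part in the choice, as did the remaining libraries of the same group. All tested genes were not chosen in this way, so the high counts follow in part from the choice and were not tested.

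The gene with the largest margin was RTO4_12041. It held 59.8, 41.3 and 55.9 TPM in the deletion libraries on cellobiose, against 6.47, 6.70 and 3.95 TPM in the wild type libraries on cellobiose. On succinate it held 13.4, 4.89 and 8.61 TPM in the deletion libraries and 3.67, 3.38 and 0.623 TPM in the wild type libraries. Its strains thus did not overlap in either medium, and its level on cellobiose in the deletion strain was 52.3 ± 9.75 TPM against 5.71 ± 1.53 TPM in the wild type (SD, n = 3 each). Without carbon it stood at 3.69 ± 0.859 TPM in the deletion strain and 2.55 ± 0.911 TPM in the wild type (SD, n = 3 each).

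The next largest margin was that of RTO4_11540, which held 183, 163 and 129 TPM in the deletion libraries on cellobiose, against 25.9, 28.3 and 24.2 TPM in the wild type libraries. On succinate the gene held 61.0, 33.8 and 23.7 TPM in the deletion libraries, against 17.7, 16.6 and 13.2 TPM in the wild type libraries. Every deletion library on succinate exceeded every wild type library there, and none came near those of the deletion strain on cellobiose. Without carbon its mean was 35.3 ± 6.51 TPM in the deletion strain and 27.0 ± 8.45 TPM in the wild type (SD, n = 3 each).

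**Figure D3:**
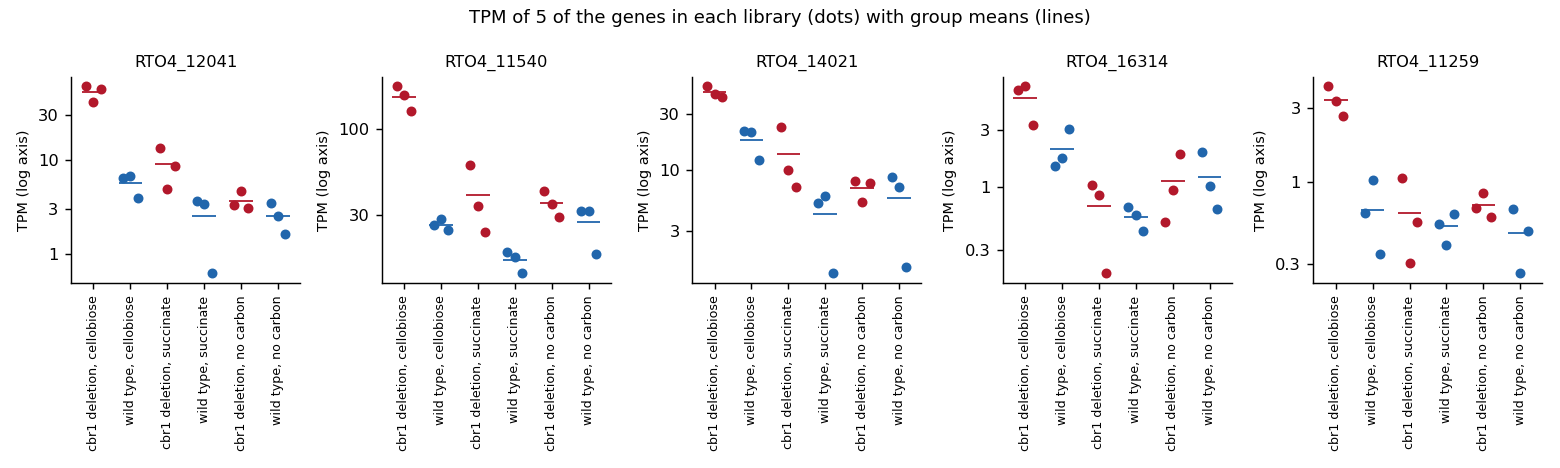
TPM on a log axis of 5 of the genes in every library (dots) with the mean of each group (lines), red for the cbr1 deletion and blue for the wild type. In RTO4_12041, RTO4_11540 and RTO4_14021 the deletion libraries on succinate lie above the wild type libraries on succinate, and in RTO4_16314 and RTO4_11259 these groups overlap.

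The most abundant of the genes, named after its values were seen, was RTO4_15438. It held 6361, 4858 and 11109 TPM in the deletion libraries on cellobiose, against 3269, 3701 and 2295 TPM in the wild type libraries on cellobiose. It made up 36.1% to 56.9% of the summed TPM of the 100 genes in the deletion strain on cellobiose, so sums over the genes follow it. Without it the summed level was 9151, 8582 and 8420 TPM in the deletion libraries on cellobiose, against 3255, 3471 and 3350 TPM in the wild type libraries, and the libraries of each strain then lay close together. This gene was also among the 3 genes whose wild type level was at least 1 log2 unit higher on cellobiose than without carbon, with a difference of 1.02.

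In 99 of the 100 genes the strains did not overlap on cellobiose, against 38% of all tested genes with the deletion libraries above. The rule asked for a difference of at least 1 in these libraries, so the count follows largely from the choice. Of the other 1564 genes at least 1 higher there, 98.0% did not overlap either. Among the 100, the exception was RTO4_8710, named after its values were seen. It held 8.03, 3.80 and 9.95 TPM in the deletion libraries and 1.63, 0 and 10.8 TPM in the wild type libraries. It was listed at 0 in single libraries of 5 groups, as the sole gene of the 100 at 0 in any library.

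The strain difference on succinate was the comparison least tied to the choice of genes, since the deletion libraries on succinate were not used. The wild type libraries on succinate entered as an upper bound, which favours low values there and hence a positive difference. The difference was above 0 in 100 of the 100 genes, against 85.3% of all tested genes, with a median of 0.85 (range 0.08 to 1.54), against a median of 0.47 over all tested genes. Limma called 0 of the 100 genes at an adjusted p under 0.05 and a log2 difference of at least 1, and it called 0.0126% of all tested genes higher. At an unadjusted p under 0.05, 75 of the 100 genes were higher and 0 lower, against 26.4% of all tested genes higher. The lowest limma adjusted p among them was 0.151, and the median was 0.152. RTO4_12041, RTO4_11540 and RTO4_14021 had the value 0.151, as did other genes within and outside the 100, so it does not rank them.

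The count of 0 changed with a single library and with the weights of the fit. With all libraries kept and array weights, limma called 27 of the genes higher, against 12.3% of all tested genes. Without deletion replicate 3 on succinate, the library close to the wild type, limma called 53 of the 100 genes higher and 0 lower, against 13.1% of all tested genes, and the median difference of the genes was 1.12. At an unadjusted p under 0.05, 80 of the genes were then higher, against 36.2% of all tested genes. Without deletion replicate 1 on succinate limma called 0, and 25 of the genes were higher at an unadjusted p under 0.05, against 7.14%. Without deletion replicate 2 it called 0, with 61 at an unadjusted p under 0.05, against 11.5%, and without wild type replicate 3 it called 0, with 44, against 12.3%. All 3 deletion libraries lay above all 3 wild type libraries on succinate in 60 of the 100 genes, against 30.1% of all tested genes, and the wild type libraries lay above in 0, against 0.529%. The count of 60 was 60, 64 and 88 with deletion replicate 1, 2 or 3 left out, against 33.8%, 32% and 55.2% of all tested genes.

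The deletion libraries on succinate differed in how many of the genes stood above the highest wild type library. Replicate 1 did so in 100 of the 100 genes, against 62.8% of all tested genes. Replicate 2 did so in 88 genes, against 63.8%, and replicate 3 in 64 genes, against 41.1%. The median difference from the wild type mean was 1.33, 0.92 and 0.36 in replicates 1, 2 and 3, against 0.60, 0.56 and 0.27 over all tested genes. In each library the genes were thus further above the wild type than the median tested gene, by the least in replicate 3.

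The median difference of all tested genes on succinate, 0.47 in TPM, moved to about 0 when libraries were brought to a common median ratio. After that scaling the median of the 100 genes was 0.45, and 89 of the 100 had a positive difference. Limma then called 0 of them, and 30 were higher at an unadjusted p under 0.05, against 6.03% of all tested genes. Relative to all tested genes, the median of the 100 genes was higher by 0.38 in TPM and by 0.45 after scaling.

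**Figure D4:**
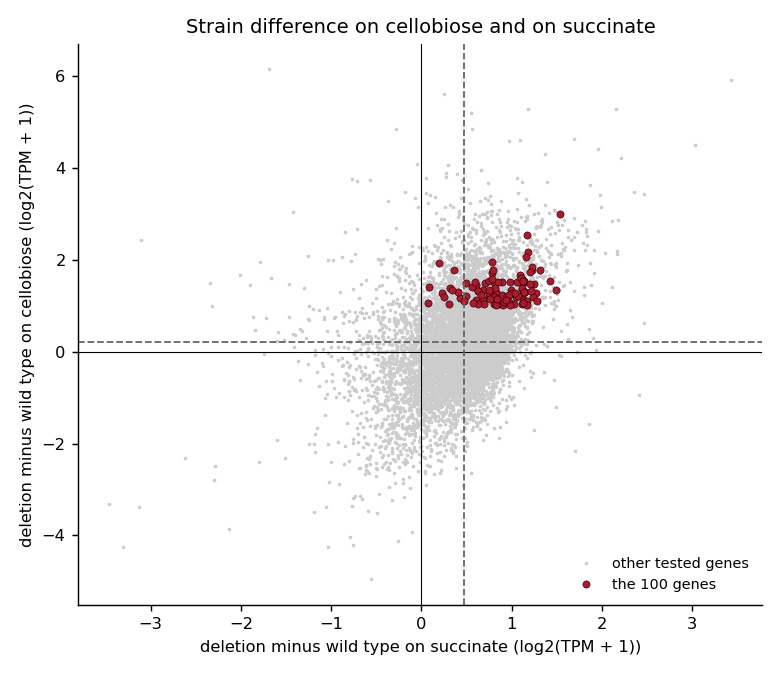
Deletion strain minus wild type on cellobiose (vertical axis) against the same on succinate (horizontal axis), in log2(TPM + 1), for the 100 genes (red) and the other tested genes (grey). Dashed lines mark the medians of all tested genes, 0.22 on cellobiose and 0.47 on succinate. All 100 genes lie right of 0, and the lower edge of the red points at 1 is set by the rule.

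The largest strain differences on succinate were those of RTO4_12041 and RTO4_14021. RTO4_12041 differed by 1.54 ± 0.39 in log2 (SE; limma adjusted p = 0.151). RTO4_14021 held 23.6, 10.1 and 7.25 TPM in the deletion libraries on succinate, against 5.25, 6.05 and 1.31 TPM in the wild type libraries on succinate. All deletion libraries were above all wild type libraries, replicate 1 by far the most, and the log2 difference was 1.49 ± 0.49 (SE; limma adjusted p = 0.151). On cellobiose the gene held 52.1, 45.2 and 42.6 TPM in the deletion libraries and 21.5, 21.1 and 12.3 TPM in the wild type libraries. Its wild type level on cellobiose exceeded that without carbon by 1.69, the largest such difference among the 100 genes. Without deletion replicate 3 on succinate, limma called both genes. Each was called under 2 alternative settings in all and not called under 27. Without deletion replicate 1 on succinate, the differences of RTO4_12041 and RTO4_14021 were 1.23 and 1.03, and without wild type replicate 3 they were 1.05 and 0.98. With array weights they were 0.50 and 0.72.

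At the other end stood RTO4_16314 and RTO4_11259, both of low level. RTO4_16314 held 6.44, 6.93 and 3.29 TPM in the deletion libraries on cellobiose, against 1.498, 1.74 and 3.07 TPM in the wild type libraries on cellobiose. On succinate it held 1.04, 0.853 and 0.190 TPM in the deletion libraries and 0.680, 0.589 and 0.434 TPM in the wild type libraries, which overlapped (log2 difference 0.08 ± 0.32, SE; limma adjusted p = 0.879). RTO4_11259 held 4.12, 3.30 and 2.68 TPM in the deletion libraries on cellobiose, against 0.631, 1.03 and 0.345 TPM in the wild type libraries. On succinate its libraries overlapped too, with 1.06, 0.301 and 0.551 TPM in the deletion strain and 0.542, 0.397 and 0.627 TPM in the wild type (log2 difference 0.08 ± 0.25, SE; limma adjusted p = 0.825). After median-ratio scaling the differences of both genes on succinate were negative, at -0.15 for RTO4_16314 and -0.13 for RTO4_11259.

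The genes differed in level, and on the log2(TPM + 1) scale the median difference on succinate was smaller in those of low level. The 21 genes with a mean under 5 TPM over all libraries had a median strain difference of 0.69 on succinate and 1.31 on cellobiose. The 55 genes of 5 to 50 TPM had 0.89 and 1.29, and the 24 genes of at least 50 TPM had 1.11 and 1.34. Without deletion replicate 3, the medians on succinate were 0.83, 1.102 and 1.42 in the same order of level. Differences on this scale understate changes of low genes, and the same scale set the bound of 1 on cellobiose. The share of genes whose deletion libraries lay above all wild type libraries on succinate does not depend on this scale. It was 57.1%, 61.8% and 58.3% in the same order of level, against 30.1% of all tested genes. Without deletion replicate 3 it was 81.0%, 89.1% and 91.7%, against 55.2%. Across the 100 genes, the difference on cellobiose and that on succinate, which share no libraries, had a Pearson's r of 0.26 and a Spearman's rho of 0.18 (0.21 and 0.20 without deletion replicate 3 on succinate).

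Within the deletion strain, 53 of the 100 genes were at least 1 log2 unit higher on cellobiose than on succinate, 40 were 0.5 to 1 higher, 6 were 0 to 0.5 higher and 1 was lower. The median was 1.02. Over all tested genes the shares were 11.2%, 19.1%, 29.8% and 39.8% in the same order, with a median of 0.17. Of 1564 other genes at least 1 higher in the deletion strain on cellobiose, 47.4% exceeded succinate by at least 1 (median 0.97). In 81 genes the cellobiose libraries lay above all succinate libraries, against 27.4% of all tested genes. Without deletion replicate 3 on succinate, 28 genes were at least 1 higher, 51 were 0.5 to 1 higher, 20 were 0 to 0.5 higher and 1 was lower. Over all tested genes these shares were 6.48%, 16.2%, 32.4% and 45.0%. The median of the 100 genes was then 0.71, against 0.069 over all tested genes, and the libraries did not overlap in 81 genes, against 28.5%. The cellobiose libraries chose the genes, so this is a description. The sole gene not higher on cellobiose was RTO4_13830, named after its values were seen. It held 12.4, 11.7 and 10.9 TPM on cellobiose, 11.6, 10.5 and 14.9 TPM on succinate and 3.33, 5.57 and 4.53 TPM without carbon in the deletion strain. Its levels on both carbon sources overlapped and stood above those without carbon. In the wild type it held 4.10, 4.75 and 4.96 TPM on cellobiose, 6.11, 7.42 and 3.35 TPM on succinate and 4.04, 5.42 and 3.37 TPM without carbon, which overlapped across the media.

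Succinate against no carbon was then compared in the deletion strain. The rule used the libraries without carbon, as a bound and in the margin. Both uses favour low values there and hence a higher difference on succinate. The medians, calls and p-values of this comparison carry that lean. The 100 genes had a median difference of 0.012, with 50 above and 50 below 0, while the median of all tested genes was -0.39 and 29.0% of them were above 0. The even split held in TPM with all libraries: 72 were above 0 (median 0.25) without deletion replicate 3 on succinate, 32 (median -0.23) without deletion replicate 1, and 82 with median-ratio scaling (median 0.33) or quantile normalization (median 0.56). Limma called 4 of the 100 genes higher and 1 lower on succinate, against 6.79% of all tested genes higher and 21.9% lower. With median-ratio scaling, 8 genes were called higher and 0 lower, against 10.6% and 12.4% of all tested genes. With quantile normalization, 18 were called higher and 0 lower, against 11.6% and 11.8%. Without deletion replicate 1 on succinate, 1 was called higher and 4 lower, against 6.55% and 22.7%, and without replicate 3, 7 higher and 1 lower, against 6.9% and 17.4%. The succinate libraries lay above those without carbon in 8 genes, against 13.1% of all tested genes, and below them in 4, against 37.5%.

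The 4 genes called higher were RTO4_13830, RTO4_9602, RTO4_9454 and RTO4_12041, named after their values were seen. None of these calls held with a pseudocount of 5 TPM or with limma's treat test against a difference of 1, which called 0 of the 100 genes. RTO4_12041, whose values are given above, was higher by 1.01 ± 0.39 in log2 (SE; limma adjusted p = 0.0464). RTO4_13830 was higher by 1.29 ± 0.28 in log2 (SE; limma adjusted p = 0.00138). RTO4_9602 held 45.2, 36.7 and 16.9 TPM on succinate and 12.0, 16.1 and 13.03 TPM without carbon in the deletion strain, a difference of 1.11 ± 0.32 (SE; limma adjusted p = 0.0115). RTO4_9454 held 8.72, 6.48 and 3.74 TPM on succinate and 2.31, 2.95 and 2.18 TPM without carbon in the deletion strain, a difference of 1.02 ± 0.30 (SE; limma adjusted p = 0.0131). In all 4 genes the succinate libraries lay above those without carbon, in RTO4_12041 narrowly (lowest 4.89 TPM on succinate, highest 4.67 TPM without carbon). In RTO4_9602 and RTO4_9454 the library nearest to no carbon was replicate 3. The gene called lower was RTO4_12830, with 5.40, 2.35 and 4.24 TPM on succinate and 10.9, 9.69 and 7.76 TPM without carbon in the deletion strain (-1.11 ± 0.37, SE; limma adjusted p = 0.0256).

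In the wild type, the median differences of the 100 genes between media were close to those of all tested genes, while their median levels were lower. Succinate lay below no carbon in 93 of the 100, with a median of -0.53, against 79.9% and -0.59 over all tested genes. All 3 succinate libraries lay below those without carbon in 28 genes, against 33.3%. The bound on this difference was 0.5, so high values had been left out. Cellobiose lay above succinate in 90 of the 100 genes in the wild type, with a median of 0.55, against 74.98% and 0.43 over all tested genes, and the libraries did not overlap in 38 genes, against 32.6%. The rule bounded both wild type levels against no carbon in the direction that favours a positive difference here. Its strain difference and margin on cellobiose favour low wild type values there. This comparison is thus tied to the choice and is a description. Between the strains without carbon, the deletion libraries lay above the wild type libraries in 2 of the 100 genes, against 3.14%, and below in 0, against 5%, and the rule had bounded that difference from above. Same-numbered libraries deviated together there in replicates 1 and 3 (r = 0.61 and 0.69). In replicate 2 r was 0.24, below that of replicate 1 of either strain with replicate 2 of the other (0.35 and 0.26). By same-numbered pairs the deletion library was higher in every pair in 46 genes, against 51% of all tested genes, and lower in every pair in 3, against 13.1%.

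Besides the 100 genes, 1564 other tested genes were at least 1 log2 unit higher in the deletion strain on cellobiose. On succinate the median strain difference was 0.85 in the 100 genes and 0.65 in the others, and the deletion libraries on succinate lay above all wild type libraries there in 60 of the 100 genes and in 43.7% of the others. Without deletion replicate 3 the medians were 1.12 in the 100 genes and 0.84 in the others, and the libraries did not overlap in 88 of the 100 genes and in 71.8% of the others. Of the 1564 genes, 1544 missed at least 1 of the other bounds, and no test of the difference between the sets was made. The 20 genes that met the bounds but ranked lower had a median of 0.77 on succinate (1.06 without deletion replicate 3).

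Most of the genes had no other of the 100 near them in identifier number. In 4 of the 100 genes, the pairs RTO4_12399 with RTO4_12400 and RTO4_14025 with RTO4_14026, the number was consecutive. Another of the genes lay within 3 numbers in 8 of the 100. No count for randomly drawn genes was made, so grouping was not tested. Of the 176 tested genes outside the 100 whose number was next to that of a member, limma called 43 (24.4%) higher in the deletion strain on cellobiose, against 19.9% of all tested genes, and 17 (9.66%) lower, against 9.15%. At up to 3 numbers away it called 110 of 525 (21.0%), so the neighbours in number were near the background. What consecutive numbers mean for genome position is not given in the sources used here.

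A run of numbers, picked out after its values were seen, held 2 of the genes, RTO4_11259 and RTO4_11262, on either side of RTO4_11260 and RTO4_11261. RTO4_11261, which is outside the 100, held 13078.5, 15311.7 and 6482 TPM in the deletion libraries on cellobiose, against 706, 664 and 749 TPM in the wild type libraries (a gap of 3.95 ± 0.72 in log2, SE; limma adjusted p = 0.000351). Without carbon it held 7009 to 9197 TPM in the deletion strain and 4236 to 5863 TPM in the wild type, which is why the rule left it out. RTO4_11262 held 7.89, 6.30 and 4.94 TPM in the deletion libraries on cellobiose and 0.838, 1.07 and 0.805 TPM in the wild type libraries. Without carbon it held 1.90, 1.37 and 0.527 TPM in the deletion strain and 1.47, 1.20 and 0.779 TPM in the wild type. The 2 genes were thus higher in the deletion strain on cellobiose, as RTO4_11260 and RTO4_11261 were, but were low in all other groups, while RTO4_11260 and RTO4_11261 were high without carbon in both strains.

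**Figure D5:**
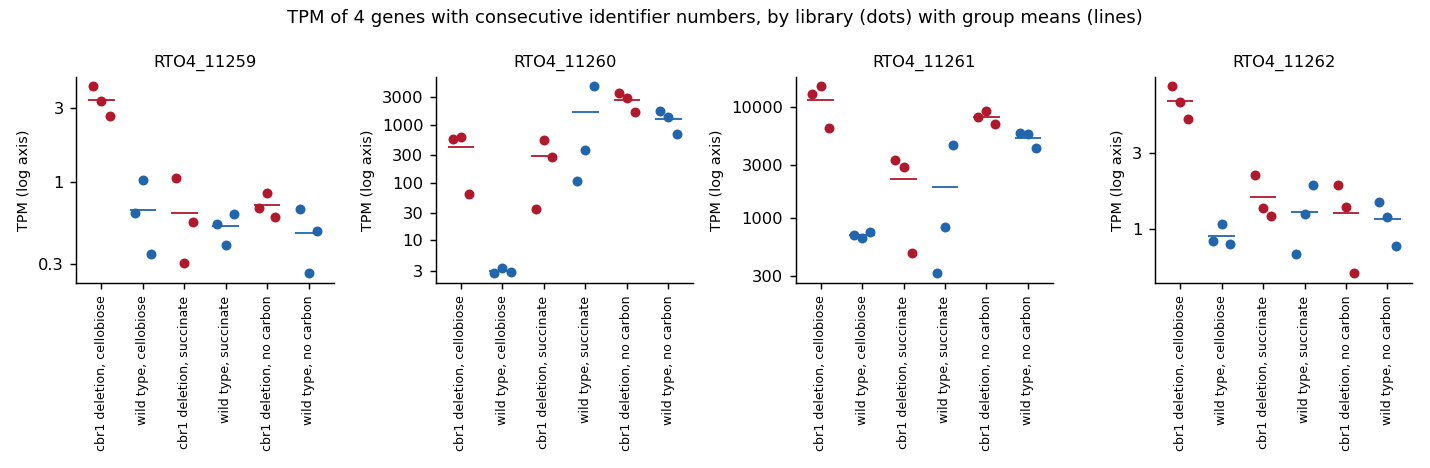
TPM on a log axis of 4 genes with consecutive identifier numbers in every library (dots) with the mean of each group (lines), red for the cbr1 deletion and blue for the wild type. RTO4_11259 and RTO4_11262, the outer panels, are highest in the deletion strain on cellobiose, and RTO4_11260 and RTO4_11261, the inner panels, are also high without carbon.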

How the data were processed

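The deposited table holds TPM per gene for 18 libraries, made by the authors. Salmon 1.10.0 is named in the submitters' processing notes. Genome build and annotation were not given in the sources used here. Columns were matched to samples by library name.

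Genes averaging under 1 TPM (546) were left out, and log2(TPM + 1) of the other 7938 was modelled by limma 3.58.1 (R 4.3.3), using 1 mean per group, all 18 libraries for the spread and a trend in the empirical Bayes step. Benjamini-Hochberg adjustment was made over all tested genes within a comparison. A gene was called at an adjusted p under 0.05 and an absolute log2 difference of at least 1. Every adjusted p is from limma. The fit was tested on simulated data with independent noise in each gene and no deviation shared by a whole library. That test therefore does not show how the fit deals with libraries that stand apart, as on succinate. Deviations of same-numbered libraries of the strains correlated at 0.61, 0.24 and 0.69 without carbon, where the rule used the difference, so pairs are given there. Replicates 1 and 2 of unlike strains correlated at 0.35 and 0.26, so the number does not single out the pair of replicate 2. With 3 libraries against 3, an exact permutation test cannot give a p under 0.1.

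The genes, lists and tests were chosen with earlier results of these data known. Genes named by rule were the 2 with the largest margin and the 2 with the largest and the 2 with the smallest strain difference on succinate, 5 genes in all.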

Additional observations from a re-analysis of the deposited data

How the results depend on the processing

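The count of 0 of the 100 genes called on succinate was also 0 under 26 of 29 alternatives. It was 34 with the replicate number as a block over 18 libraries (5.4% of all tested genes) and 0 with the replicate block in the 6 libraries of the comparison. With limma array weights, whose estimation stopped before convergence, it was 27 (12.3% of all tested genes). With a library left out it was 0 to 53, where 53 stood against 13.1% of all tested genes. Same-numbered libraries of the strains on succinate did not deviate together (r = 0.08, -0.34 and -0.32), so the number does not pair them. In the deletion strain, the 5 genes called between succinate and no carbon became 0 with a pseudocount of 5 TPM or limma's treat test, 8 with median-ratio scaling, 18 with quantile normalization, 3 with a mean of at least 5 TPM or array weights, and 2 to 8 with a library left out. There r of same-numbered libraries was 0.25, -0.04 and 0.29, and the block gave 5 and 4, against 29.2% and 29.0% of all tested genes called. Of the 100 genes, 56 were chosen again with a pseudocount of 5 TPM or median-ratio scaling, 43 with quantile normalization and 46 to 100 with a library left out. The difference on succinate was reversed for RTO4_16314 with median-ratio scaling (-0.15) and quantile normalization (-0.095), and ran from -0.075 to 0.31 with a library left out. For RTO4_11259 it was reversed with median-ratio scaling (-0.13), quantile normalization (-0.066) and array weights (-0.084), and ran from -0.096 to 0.24 with a library left out. The cause of these changes was not tested. Counts at an unadjusted p, of non-overlapping libraries, of same-numbered pairs without carbon, and other values without deletion replicate 3 on succinate were added after seeing the data.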
